A study of Homo sapiens with 4 samples.

Results

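Matrix metalloproteinases (MMPs) and tissue inhibitors of metalloproteinases (TIMPs) were followed across 4 RNA sequencing libraries of BEAS-2B cells, an established human bronchial epithelial cell line. The genes were chosen by symbol, namely MMP1, MMP2, MMP3, MMP9, MMP10, MMP13, MMP14, TIMP1, TIMP2 and TIMP3, and all 10 were among the 24424 symbols counted. Control cells received no treatment, and LPS cells received the bacterial lipopolysaccharide for 2 hr. The other libraries, labelled WT PDZ+LPS and mut PDZ+LPS and here called WT peptide and mut peptide, came from cells kept for 24 hr with the wild-type or the mutated form of a PDZ peptide before LPS for 2 hr. No library analysed here came from cells given a peptide alone. The peptide was based on the first PDZ domain of the tight junction protein ZO-1 with a cell-penetrating TAT sequence, and the mutant peptide carried alanines in place of a pair of glycines. Each condition had 1 library from the same line, labelled wild type, so the differences could not be checked against replicates and no test was run.

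MMPs are zinc-dependent endopeptidases that cut collagens, laminins, fibronectin and many cytokines and receptors. They are made as inactive proenzymes, and many of their genes are switched on by inflammatory signals. TIMPs bind the active site of MMPs and block it, and airway epithelium secretes both during injury and repair. Within the family, MMP1 and MMP13 are collagenases, MMP3 and MMP10 are stromelysins, MMP2 and MMP9 are gelatinases, and MMP14 is a membrane-type MMP that activates pro-MMP2 together with TIMP2.

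The libraries held 19682929 to 25155647 counts. Counts were divided by geometric size factors, which gives normalized counts, and 1 was added before log2. A gene was called higher or lower when 2 libraries differed 2-fold or more and one of them reached 16 normalized counts, the expression rule. A value given for a comparison such as LPS/Control, with no other unit, is a log2 fold change of the first library over the second. Intervals in brackets are exact 95% intervals of the counting error between 2 libraries, not between conditions, and without molecular identifiers separate reads need not be separate molecules. The mut peptide library stood apart by transcript length. Spearman's rho across 12371 genes between transcript length and log2 fold change was -0.591 in mut peptide/LPS and 0.0637 in WT peptide/LPS, so values of mut peptide are also given after a correction for length and GC content. The 7 epithelial markers examined (EPCAM, CDH1, KRT5, KRT7, KRT8, KRT18 and KRT19) had at least 16 normalized counts in every library, with summed levels of 68058 to 94331 normalized counts. Of 8 leukocyte and macrophage markers, 2 reached that level (CD14 and CD68), the 8 summed to 734 to 899 normalized counts, and PTPRC and MARCO were at 0 in all 4 libraries. Of 10 mesenchymal and fibroblast markers, 5 reached it, VIM and THY1 among them, COL3A1 and LUM were at 0, and the sum ran from 22807 to 27158 normalized counts. The part of these markers and of transcript length in the differences given here was not tested beyond the correction. In bulk RNA, more cells expressing a gene and more RNA per cell cannot be told apart.

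Of the 7 MMPs, MMP3 alone was called higher after LPS. MMP3, stromelysin-1, degrades proteoglycans, fibronectin and laminin and activates other pro-MMPs. It had 1 count in Control, 533 in LPS, 255 in WT peptide and 354 in mut peptide. In normalized counts these were 0.87, 501, 257 and 416. The library without LPS was near 0 and the 3 libraries with LPS were high, with WT peptide the lowest of them. The ratio of LPS to Control was 576 (103 to 22797), an interval wide because it rests on a single Control count. On the log2 scale the difference from Control was 8.07 for LPS, 7.11 for WT peptide and 7.80 for mut peptide, and a pseudocount of 5 lowered these to 6.43, 5.48 and 6.16. Among the 13277 genes that passed the expression rule in LPS/Control, MMP3 ranked number 2 from the highest with the pseudocount of 1. That rank was not kept with the pseudocount of 5. MMP3 was the 1 called member of the 6 that passed the rule in each of these 3 comparisons. Of all genes tested, 4.87% were called in LPS/Control (3.46% higher and 1.41% lower). The share was 4.7% in WT peptide/Control (3.28% higher and 1.42% lower) and 8.09% in mut peptide/Control (5.13% higher and 2.96% lower). These comparisons share the Control library.

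**Figure D1:**
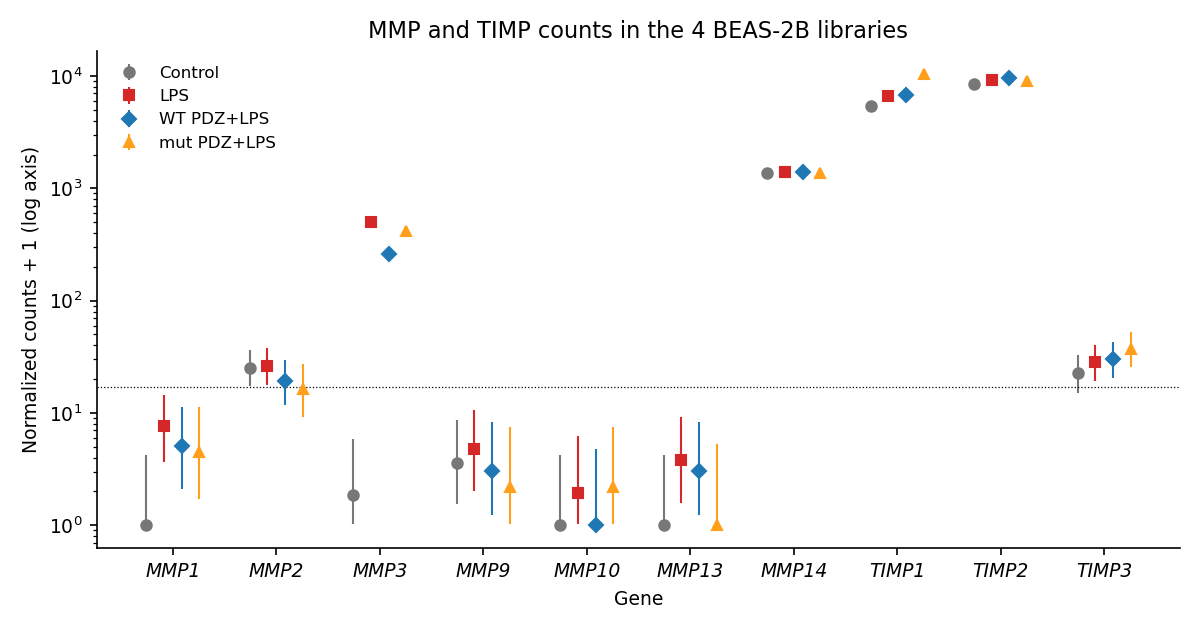
Normalized counts plus 1 (log axis) of each MMP and TIMP gene in each condition, 1 point per library with its exact 95% Poisson counting interval; the dotted line is 16 normalized counts. MMP3 went from 0.87 in Control to 257 to 501 with LPS, whereas MMP14, TIMP1 and TIMP2 were high in all 4 libraries and MMP1, MMP9, MMP10 and MMP13 stayed below the line.

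MMP3 was lower in both peptide libraries than with LPS alone, more so with the wild-type peptide. WT peptide had 0.514 times the LPS level (0.441 to 0.597), a log2 fold change of -0.96 (-1.18 to -0.74) that lay just inside the 2-fold threshold and ran from -0.97 to -0.95 over the scalings, the other pseudocount and the length correction. The level above Control was 51.3% of that in LPS. In mut peptide the level was 0.83 times that of LPS (0.723 to 0.951), with a log2 fold change of -0.27 (-0.47 to -0.073) and a level above Control of 82.9% of that in LPS. Set directly against each other, mut peptide had 1.62 times the MMP3 of WT peptide (1.37 to 1.91), a log2 difference of 0.69 (0.46 to 0.93) or 0.59 after the correction for length and GC content. The correction moved mut peptide/LPS to -0.37. All 3 intervals left out equality, but how much MMP3 varies between cultures treated alike was not measured.

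Against the other genes, the lower MMP3 in WT peptide stood near the bottom. Among the 13236 genes that passed the expression rule in WT peptide/LPS, MMP3 ranked number 106 from the lowest. Among the 11494 genes with at least 64 normalized counts in LPS or WT peptide, MMP3 ranked number 7 from the lowest, and the median of these genes was 0.0082. The genes below it, named after their values were seen, were RPL21, EBI3, FAXDC2, IGFL1, TNNT2 and FOSB. One epithelial marker, KRT19, lay close by with 216, 177, 87 and 144 counts from Control through LPS and WT peptide to mut peptide, whereas KRT7 and KRT18, the markers most abundant per kb, stood at -0.018 and -0.19 in WT peptide/LPS. Of the 7 epithelial markers, 2 were above 0 there (EPCAM at 0.50 and CDH1 at 0.12) and 5 below, with a median of -0.020. KRT19 was called lower in WT peptide/Control, at -1.09 (-1.47 to -0.73). Whether this bears on MMP3 was not tested. In mut peptide/LPS MMP3 ranked number 3285 from the lowest of 11603. Among the 460 genes called higher in LPS/Control, 354 were lower in WT peptide than in LPS, with a median of -0.15, and MMP3 ranked number 31 from the lowest. Of the same 460 genes, 244 were lower in mut peptide than in LPS, with a median of -0.034. Over the 11494 genes, 5373 were lower in WT peptide than in LPS. Over the 11603 genes of mut peptide/LPS, 6167 were lower in mut peptide than in LPS. Their median was -0.033, close to the -0.034 of the 460 genes. The 11494 and 11603 genes were held to at least 64 normalized counts, and the 460 genes were not. Genes picked for being high in LPS can be lower in another library through that choice alone. The part of this choice in the values of either peptide library was not tested.

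**Figure D2:**
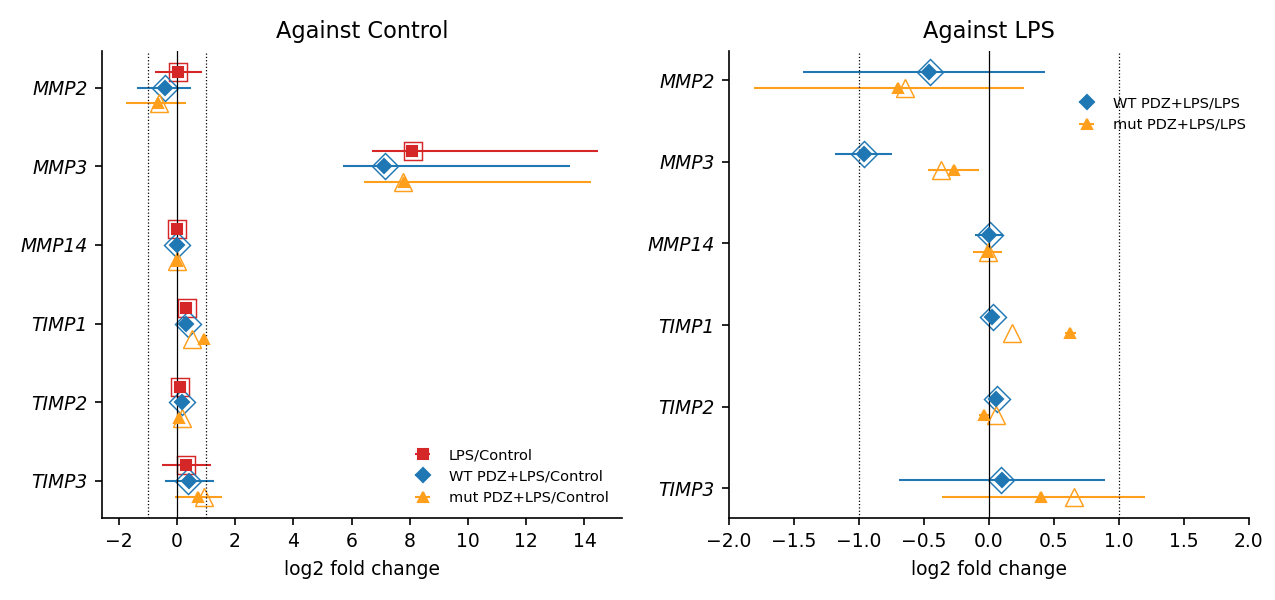
Log2 fold changes of the 6 genes that passed the expression rule, against Control (left) and against LPS (right), as filled points with exact 95% counting intervals; open symbols show the values after the length and GC correction, and dotted lines mark a 2-fold difference. MMP3 stands at 7.11 to 8.07 against Control and at -0.96 in WT peptide/LPS, and TIMP1 in mut peptide/LPS moves from 0.63 to 0.18 with the correction.

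MMP3 lies in a run of 9 MMP genes on chromosome 11, and its neighbours stayed at or near 0. In order the genes are MMP7, MMP20, MMP27, MMP8, MMP10, MMP1, MMP3, MMP12 and MMP13. In Control the cluster had 1 count in all, that of MMP3. In LPS it had 552 counts, of which the 8 genes other than MMP3 gave 19 together and at most 7 each. They gave 6 counts in WT peptide and 5 in mut peptide. MMP20, MMP27 and MMP8 were at 0 in all 4 libraries. MMP12, macrophage elastase, had 0, 6, 0 and 1 counts from Control through LPS and WT peptide to mut peptide. With the 0 of Control taken as 3 counts, its LPS level was 2.16 times that of Control, and the exact counting interval of the ratio began at 1.27. No window of 100 bases, the length of the reads, was shared between the MMP3 transcript and that of another gene in GENCODE 29. WTAPP1, annotated on the opposite strand across MMP1, MMP3 and MMP10, had 1 count in LPS and 0 elsewhere.

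**Figure D3:**
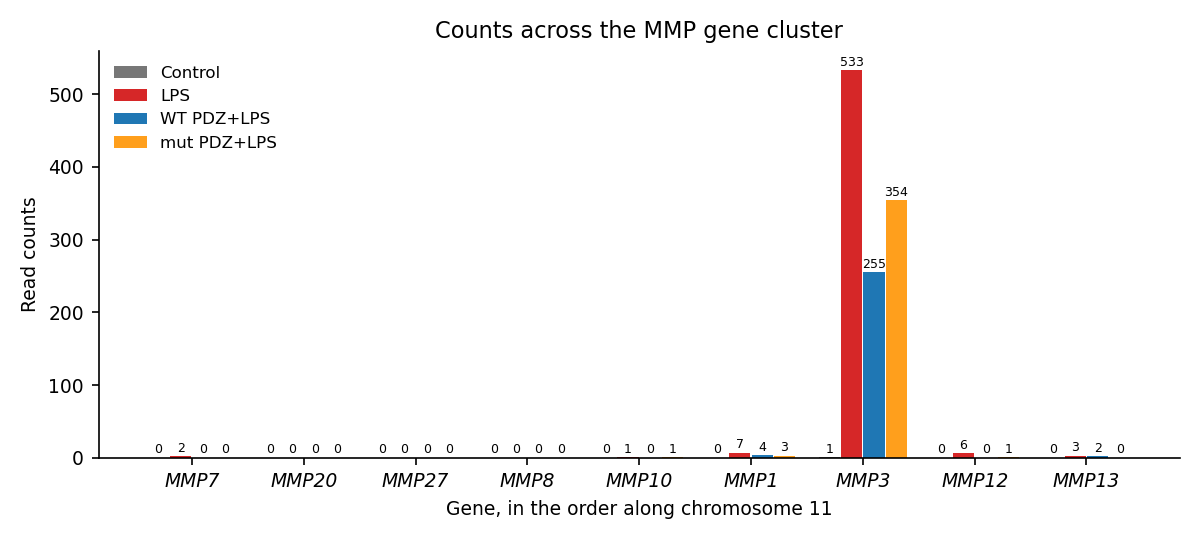
Read counts of the 9 MMP genes in their order along chromosome 11, 1 bar per library with its count above it. MMP3 reaches 533, 255 and 354 counts with LPS, and no neighbour exceeds 7.

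The collagenases were scarce. MMP1, which opens fibrillar collagen, had 0 counts in Control, 7 in LPS, 4 in WT peptide and 3 in mut peptide. It was thus counted in the 3 libraries with LPS and not in Control, at a level below the expression rule. With the 0 of Control taken as 3 counts, the LPS level was 2.52 times that of Control, and the exact counting interval of the ratio began at 1.56. Differences between the 3 LPS-treated libraries were not detectable at this depth (0.132 to 2.41 times for WT peptide/LPS and 0.0893 to 2.34 times for mut peptide/LPS). MMP13 had 0, 3, 2 and 0 counts in the same order, too few for a fold.

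MMP10, stromelysin-2, is the closest relative of MMP3 among these genes, and it had 0, 1, 0 and 1 counts. Its promoter is shown because the gene lies next to MMP1 and close to MMP3 in the cluster and was barely counted in libraries where MMP3 had 255 to 533 counts. The sequence is the 250 bases before the gene start in RefSeq (GRCh38.p14, chr11:102780629-102780878, minus strand), and the promoter of TIMP1 (GRCh38.p14, chrX:47582186-47582435, plus strand), which was high in every library, is set beside it. Capitals mark matches to the AP-1 motif TGANTCA and to the TATA motif TATAAA, searched on both strands. AP-1 is a family of Fos and Jun proteins known to act on many MMP promoters.
MMP10: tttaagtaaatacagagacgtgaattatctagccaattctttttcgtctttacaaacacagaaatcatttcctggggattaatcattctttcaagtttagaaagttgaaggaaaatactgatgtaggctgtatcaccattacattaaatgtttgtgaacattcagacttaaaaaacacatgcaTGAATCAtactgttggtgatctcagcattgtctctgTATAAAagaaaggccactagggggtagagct
TIMP1: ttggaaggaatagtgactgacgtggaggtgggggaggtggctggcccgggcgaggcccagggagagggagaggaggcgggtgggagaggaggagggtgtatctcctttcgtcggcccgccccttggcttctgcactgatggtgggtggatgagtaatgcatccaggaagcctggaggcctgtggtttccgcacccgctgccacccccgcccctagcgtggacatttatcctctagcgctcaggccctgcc
The MMP10 stretch held TGAATCA from 67 to 61 bases before the start and TATAAA from 31 to 26 bases before it. Neither motif had an exact match in the TIMP1 stretch, which held TGAGTAA, 1 base away from the AP-1 motif. The search took exact matches only, so a stretch without a match can still hold a binding site. Of 35116 RefSeq promoter stretches of this length, 6.57% held the AP-1 motif and 10.7% the TATA motif. The letters GGAAG, taken as the ETS motif, were also searched on both strands and not capitalised, and 65.1% of the stretches held them. There were 2 matches in TIMP1, 1 in MMP14 and 0 in MMP10 and TIMP3, where ETS sites of other letters were not searched. The table gave an entry for MMP10, MMP14, TIMP1 and TIMP3, that is 4 of the 10 genes, and neither the AP-1 nor the TATA motif was in the stretches of MMP14 and TIMP3. There was no entry for MMP1, MMP2, MMP3, MMP9, MMP13 and TIMP2.

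The gelatinases did not pass as changed in any comparison. MMP2, which degrades type IV collagen and gelatin, had 28 counts in Control, 27 in LPS, 18 in WT peptide and 13 in mut peptide, or 24.4, 25.4, 18.2 and 15.3 normalized counts. Its log2 difference was 0.057 (-0.76 to 0.88) in LPS/Control, -0.46 (-1.43 to 0.43) in WT peptide/LPS and -0.698 (-1.81 to 0.27) in mut peptide/LPS, and none was detectable at this depth. MMP9, an NF-kB target in many cells, had 3, 4, 2 and 1 counts in the same order. The MMP9 ratio of LPS to Control was 1.44 (0.244 to 9.84), so neither a rise nor a fall could be seen.

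MMP14 was the most abundant MMP of the list, and its level was nearly the same in all 4 libraries. It had 1576 counts in Control, 1473 in LPS, 1374 in WT peptide and 1173 in mut peptide, which gave 1372, 1386, 1387 and 1378 normalized counts. On the log2 scale it stood at 0.015 (-0.089 to 0.12) in LPS/Control, 0.0019 (-0.11 to 0.11) in WT peptide/LPS and -0.0077 (-0.12 to 0.104) in mut peptide/LPS. The counting intervals leave room for a difference of at most 0.12 on the log2 scale either way. The sign of these small values, like that of MMP2 in LPS/Control, changed with the scaling, and scaling by the total count gave -0.12 in LPS/Control.

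Among the inhibitors, TIMP1 and TIMP2 were high throughout and TIMP3 was low. TIMP1, a secreted inhibitor whose gene responds to cytokines, had 6226 counts in Control, 7117 in LPS, 6725 in WT peptide and 8800 in mut peptide. These gave 5419, 6695, 6791 and 10340 normalized counts, lowest in Control and highest in mut peptide. LPS and WT peptide were 1.24-fold (1.19 to 1.28) and 1.25-fold (1.21 to 1.297) above Control, and did not differ detectably from each other, with a log2 fold change of 0.021 (-0.028 to 0.069). Scaling by the total count lowered the log2 fold change in LPS/Control from 0.31 to 0.17, and it stayed above 0 under every scaling. The mut peptide library was 1.54-fold (1.497 to 1.59) above LPS and 1.91-fold (1.85 to 1.97) above Control, which is below the 2-fold threshold. The TIMP1 transcript, at 1095 nt, was in the shortest decile of transcripts, whose median log2 fold change in mut peptide/LPS was 0.399. After the correction for length and GC content TIMP1 stood at 0.18 in place of 0.63 in mut peptide/LPS, at 0.13 in place of 0.61 in mut peptide/WT peptide, and at 0.53 in place of 0.93 in mut peptide/Control.

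TIMP2, which binds MMP14 and pro-MMP2 as well as inhibiting MMPs, had 9826 counts in Control, 9822 in LPS, 9500 in WT peptide and 7676 in mut peptide. In normalized counts these were 8552, 9239, 9593 and 9019, a range far narrower than that of TIMP1. On the log2 scale its difference was 0.11 (0.071 to 0.15) in LPS/Control, 0.054 (0.013 to 0.095) in WT peptide/LPS and -0.035 (-0.078 to 0.0084) in mut peptide/LPS. Scaling by the total count turned LPS/Control to -0.020, and the length correction turned mut peptide/LPS to 0.057, so no direction is given. Of its windows of 100 bases, 10.4% were shared with the overlapping genes AC022966.1 and CEP295NL, and CEP295NL had 26 to 45 counts.

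TIMP3, which is held in the extracellular matrix and also inhibits ADAM proteases, had 25, 29, 29 and 31 counts from Control through LPS and WT peptide to mut peptide. The 21.8 to 36.4 normalized counts did not differ detectably between any libraries. The widest gap, in mut peptide/Control, was 0.72 (-0.064 to 1.56), and 0.94 after the length and GC correction. The correction moved mut peptide/LPS from 0.40 (-0.36 to 1.20) to 0.65. TIMP1 and TIMP3 lie inside introns of SYN1 and SYN3 on the opposite strand and share no exon with them. SYN1 had 49 to 59 counts, and SYN3 1 count in Control and 0 in the other libraries.

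**Figure D4:**
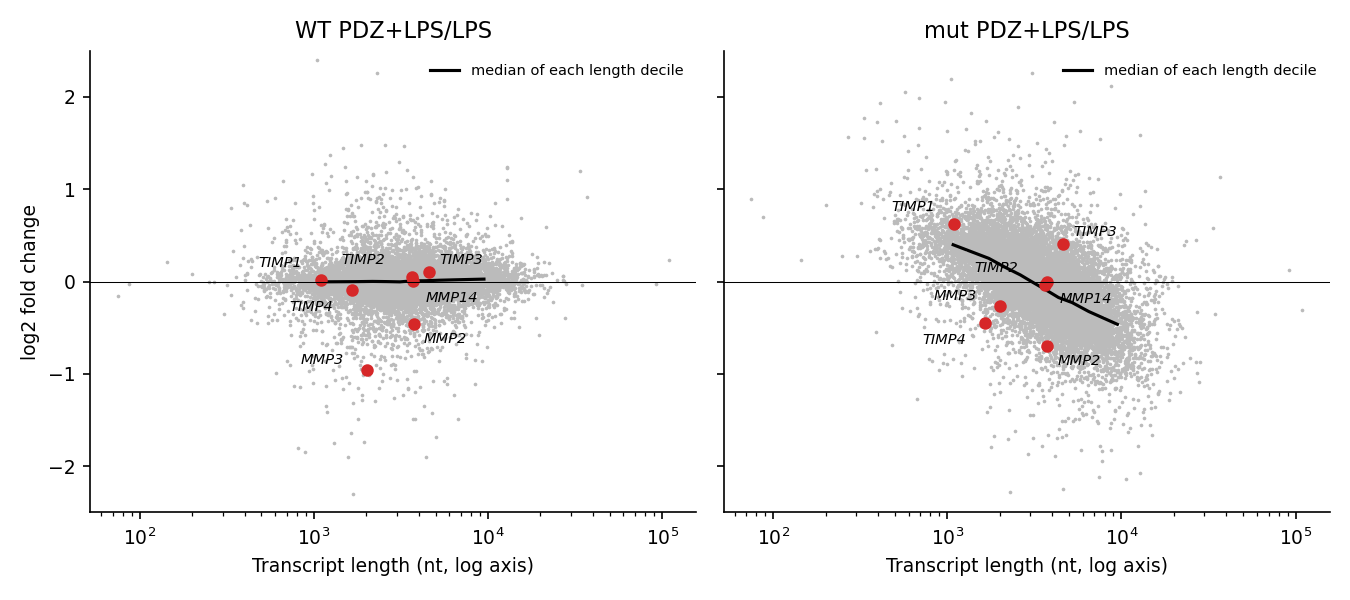
Log2 fold change against transcript length (nt, log axis) in WT peptide/LPS (left) and mut peptide/LPS (right) for 12371 genes in grey, with 6 of the listed genes and TIMP4 in red and the median of each length decile as a black line; 4 genes on the left and 13 on the right lie outside the axis. The line is flat on the left and falls from 0.399 to -0.46 on the right. There TIMP1 lies among the short transcripts, and MMP2, MMP3 and TIMP4 lie below the line.

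Between the LPS-treated libraries, 0 of the 6 members that passed the rule were called in WT peptide/LPS, mut peptide/LPS or mut peptide/WT peptide. Of all genes tested, 1.37% were called in the first of these (0.635% higher and 0.733% lower), 3.95% in the second (2.05% and 1.9%) and 4.26% in the last (2.12% and 2.14%). The member medians were 0.011, -0.021 and 0.15, beside 0.0076, -0.017 and -0.014 for all genes tested. The widest differences between the peptides were those of MMP3 at 0.69 and TIMP1 at 0.61, and the correction for length and GC content left 0.59 of the former and 0.13 of the latter. With it TIMP3 moved from 0.31 to 0.56, next to MMP3, on 29 and 31 counts. For MMP2, MMP14, TIMP2 and TIMP3 the values of mut peptide/WT peptide were -0.24 (-1.40 to 0.86), -0.0096 (-0.12 to 0.104), -0.089 (-0.13 to -0.045) and 0.31 (-0.46 to 1.097). After the correction MMP2, MMP14 and TIMP2 stood at -0.199, -0.020 and -0.012.

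To set genes beside each other, normalized counts were divided by the length in kb of the longest protein-coding transcript of each gene. The counting intervals do not cover this choice of length. Before the division TIMP2 was above TIMP1 in Control, at 8552 and 5419 normalized counts. In Control the order was TIMP1 (4948 per kb), TIMP2 (2342) and MMP14 (368), each apart from the next by its counting interval. MMP2 at 6.51 and TIMP3 at 4.73 per kb came next, and their intervals overlapped. The intervals of neighbours from TIMP3 down through MMP9, MMP3, MMP1, MMP10 and MMP13 also overlapped. With LPS, MMP3 moved from rank 7 to rank 4, at 249 per kb, between MMP14 at 371 and MMP2 at 6.79. It held the same rank at 128 per kb in WT peptide and 206 in mut peptide, in each case apart from both neighbours.

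Summed per kb, the 7 listed MMPs gave 376 in Control, 633 in LPS, 508 in WT peptide and 583 in mut peptide. The 3 listed TIMPs gave 7295, 8650, 8835 and 11920.5. Other expressed members were left out, among them MMP15 at 190 to 264 per kb and TIMP4 at 295 to 444. The shares and ratios below hold for the listed genes alone. MMP3 made up 0.115% of the MMP sum in Control, 39.3% in LPS, 25.1% in WT peptide and 35.4% in mut peptide, and MMP14 made up 97.9%, 58.6%, 73.2% and 63.4%. The TIMP sum exceeded the MMP sum 19.4-fold in Control and 13.7-fold in LPS. It did so 17.4-fold in WT peptide and 20.5-fold in mut peptide. TIMP1 made up 79.2% of the TIMP sum in mut peptide, and these sums are not corrected for the length trend that took TIMP1 in mut peptide/LPS from 0.63 to 0.18. These are ratios of transcripts, not of protein or of protease activity.

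The genes nearest to MMP3 in profile over the 4 libraries were IL1B, IL1A, PTX3, LTB and C15orf48, by the Euclidean distance of log2 values centred on each gene (0.589 to 0.689 among 11434 genes averaging 64 normalized counts or more). IL1B and IL1A encode interleukin-1 cytokines. IL1B had 2.61, 556, 340 and 644 normalized counts from Control through LPS and WT peptide to mut peptide, and IL1A had 6.09, 1077, 835 and 1140. All 5 were lowest in Control and lower in WT peptide than in LPS. They were picked for likeness to MMP3 in these same libraries, so the shared pattern is not a separate result. MMP3 was higher in LPS than in mut peptide, whereas IL1B, IL1A, PTX3 and LTB were the other way round. These differences were not corrected for the length trend of the mut peptide library, so nothing is read from that contrast. For the TIMPs the rule took TIMP3, and the nearest genes were MEX3D, SLC31A2, CLDN22, FLJ23867 and CCDC9, at distances of 0.0116 to 0.0529. The counts of TIMP3 did not differ detectably between libraries, so this profile lies within counting error and nothing is read from the likeness.

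**Figure D5:**
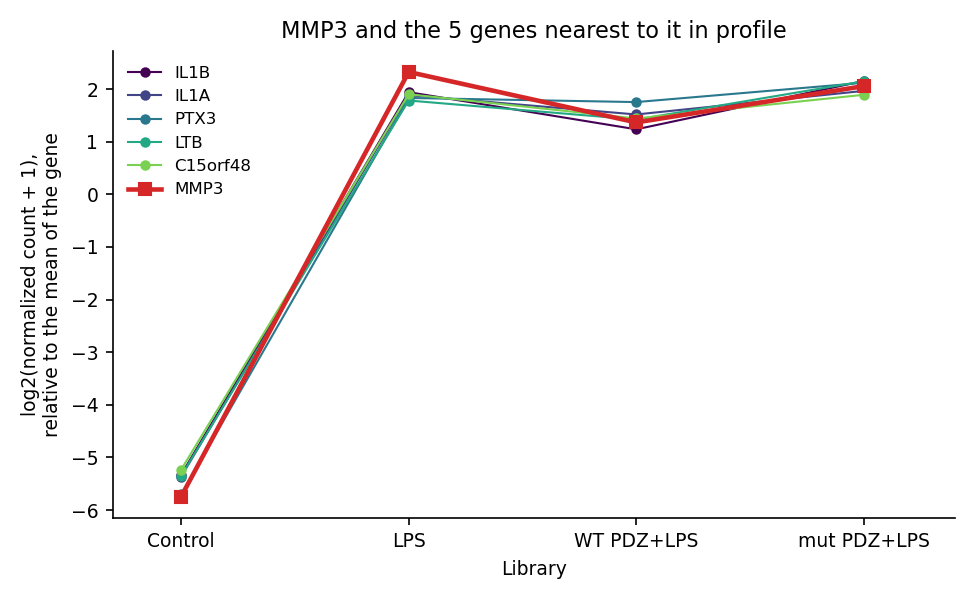
Log2(normalized count + 1) relative to the mean of each gene, over the 4 libraries, for MMP3 (red squares) and the 5 genes nearest to it in profile (circles). All are lowest in Control, and MMP3, at 8.07 in LPS/Control, has the widest step among the genes drawn with the pseudocount of 1. With a pseudocount of 5 it stands at 6.43, and PTX3, from 285 to 53023 normalized counts, has a wider step.

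The rest of the MMP family gave no call in LPS/Control. Of 18 further genes (MMP7, MMP8, MMP11, MMP12, MMP15 to MMP17, MMP19 to MMP21, MMP23A, MMP23B, MMP24 to MMP28 and TIMP4), 8 passed the expression rule, with 4 above and 4 below 0 and a median of -0.045. Of all genes tested, 4.87% were called, and their median was -0.0023. MMP15, a membrane-type MMP, had 927, 1077, 1113 and 924 counts from Control through LPS and WT peptide to mut peptide, and its log2 fold change in LPS/Control was 0.33 (0.20 to 0.46). TIMP4 had 841, 706, 617 and 414 counts, lowest in mut peptide. Its log2 fold change in mut peptide/LPS was -0.45 (-0.63 to -0.27), below the median of 0.25 in the decile of transcripts that holds its 1650 nt, and it became -0.71 after the length correction. SYN2, which shares 170 exon bases with TIMP4 on the opposite strand, had 2 to 6 counts. Chosen after its values were seen, MMP25 was called higher in WT peptide/Control, with 13 counts in Control and 35 in WT peptide, and in mut peptide/Control, with 21.

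Factors that act on MMP promoters were higher after LPS in many cases. Of 17 factors, namely AP-1 and ETS factors and RUNX2, which belongs to neither family, 16 passed the expression rule. In LPS/Control 8 were called higher and 0 lower, with a median of 1.08. RUNX2, with 179 counts in Control and 145 in LPS, passed the rule and was not called. Of all genes tested in LPS/Control, 3.46% were called higher. ELF3, an epithelial ETS factor, had 280 counts in Control, 9028 in LPS, 6002 in WT peptide and 7061 in mut peptide. FOSB, a Fos protein of AP-1, had 11, 83, 39 and 53 counts, and its log2 fold change was 2.90 (2.11 to 4.08) in LPS/Control and -0.97 (-1.58 to -0.42) in WT peptide/LPS. FOSL2, ETS1, JUN and ATF3 stood at 2.68, 1.93, 1.46 and 1.33 in LPS/Control. In WT peptide/LPS they stood at -0.13, -0.034, 0.064 and -0.11, values closer to 0 than the -0.96 of MMP3. ETS2, with ETS1 the most abundant per kb, stood at 0.87 in LPS/Control and -0.12 in WT peptide/LPS. No factor of this list was called in WT peptide/LPS or mut peptide/LPS, where 1.37% and 3.95% of all genes tested were.

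The MMP activators, receptors and modulators gave 6 genes called higher and 0 lower in LPS/Control among 26 of 28 that passed the rule, beside 3.46% and 1.41% of all genes. PLAU, the urokinase that generates plasmin and so activates pro-MMPs, had 1046 counts in Control, 6270 in LPS, 4239 in WT peptide and 4812 in mut peptide. Its log2 fold change was 2.69 (2.60 to 2.79) in LPS/Control, -0.46 (-0.52 to -0.41) in WT peptide/LPS and -0.061 (-0.12 to -0.0065) in mut peptide/LPS, so WT peptide was the lowest of the 3 libraries with LPS, as for MMP3. LCN2, a partner of MMP9, stood at 2.07 in LPS/Control. PLAT, HBEGF and TFPI2 stood at 1.17, 1.11 and 1.03. CD63 and BSG, a TIMP1 binding partner and an inducer of MMPs, were the most abundant per kb and stood at 0.0063 and -0.0090 in LPS/Control. Against LPS, 0 of 26 were called in WT peptide, beside 1.37% of all genes. In mut peptide 1 was called lower, beside 1.9% of all genes. That gene, named after its values were seen, was the collagen receptor DDR2, with 21 counts in LPS and 3 in mut peptide. Its transcript, at 10160 nt, was in the longest decile, whose median log2 fold change in mut peptide/LPS was -0.46.

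Among the related ADAM and ADAMTS genes, not all of which encode active proteases, 15 of 33 passed the rule in LPS/Control. Of these, 1 was called higher and 2 lower, where 3.46% and 1.41% of all genes were, and the median was 0.090. ADAMTS15, an aggrecan-cleaving protease, had 564 counts in Control, 104 in LPS, 91 in WT peptide and 81 in mut peptide. On the log2 scale this gave -2.32 (-2.64 to -2.02) in LPS/Control, opposite to MMP3. ADAMTS9 had 7, 35, 51 and 21 counts and ADAM19 had 26, 7, 7 and 10. ADAM9 and ADAM15, the most abundant per kb, stood at 0.14 and 0.12 in LPS/Control.

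Of 20 matrix proteins that MMPs can cut, 15 passed the rule, 2 were called higher and 0 lower in LPS/Control, where 3.46% and 1.41% of all genes were. The median was 0.26, beside -0.0023 for all genes. LAMB3, the beta chain of laminin-332 in the epithelial basement membrane, had 32, 668, 709 and 507 counts from Control through LPS and WT peptide to mut peptide. TNC, tenascin-C, had 272, 1583, 1278 and 1101 counts. LAMB3 in WT peptide/LPS stood at 0.19 (0.034 to 0.34), so it was not lower with the wild-type peptide as MMP3 was. FN1, fibronectin, stood at 0.56 in LPS/Control, and at -0.61 in mut peptide/LPS or -0.13 after the length correction. LAMA5, a laminin chain, stood at 0.084 in LPS/Control.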

How the data were processed

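Total RNA of BEAS-2B cells was made into poly(A)-selected directional libraries and sequenced as paired-end reads of 100 bases. The authors trimmed adapters and low-quality bases, mapped the reads with TopHat (hg19 in the submitters' processing notes) and deposited raw counts per gene symbol. The counting tool, the annotation and whether strand was used are not given in the sources used here. The study's methods name FPKM and geometric normalization, but the deposited columns hold integers whose sums differ between libraries and were analysed as counts. The files list symbols without positions. Chromosomes, transcript lengths and overlaps came from GENCODE 29 and promoters from RefSeq (both GRCh38).

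Size factors came from DESeq2 1.42.0 (R 4.3.3), and TMM and upper quartile scaling from edgeR 4.0.16. Intervals were exact binomial (Clopper-Pearson) or Poisson at 95%. Against 0 counts a fold took the 0 as 3 counts. The length and GC correction removed lowess trends (span 0.3) fitted on genes averaging 16 normalized counts or more. Of 13072 such genes, 12371 had a transcript length. The members, lists, thresholds and alternatives were chosen with earlier results of these data known. Genes of other lists were named when called in LPS/Control or against LPS (at most 6 per list, by LPS/Control) or when among the 2 highest per kb, and the 5 nearest profiles were named for the MMP and the TIMP with the largest LPS/Control value. One gene that this rule takes is not reported here. Alternatives were 3 other scalings, a pseudocount of 5, no expression rule or one of 64, fold thresholds of 1.5 and 3, and the correction. Calls, intervals and correction were tried on simulated Poisson counts with a length trend, but without a GC trend or spread between cultures. Such counts cannot show how the intervals behave where cultures vary. Scripts ran under Python 3.11.15 with scipy 1.17.1, numpy 2.4.6, statsmodels 0.14.6, pandas 2.3.3 and, for plots, matplotlib 3.10.9. Short names stand for WT PDZ+LPS (WT peptide) and mut PDZ+LPS (mut peptide).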

Additional observations from a re-analysis of the deposited data

How the results depend on the processing

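The 6 counts of called members were recomputed under 9 alternatives each, and 45 of 54 stayed within 1.5 times the value given. Without the expression rule the counts became 3 in LPS/Control, 3 in WT peptide/Control and 3 in mut peptide/Control, in each case with genes of 7 counts or fewer added to MMP3, and 2 each in mut peptide/LPS and mut peptide/WT peptide. A fold threshold of 1.5 gave 4 in mut peptide/Control, 1 in WT peptide/LPS (MMP3), 2 in mut peptide/LPS (MMP2 and TIMP1) and 2 in mut peptide/WT peptide (MMP3 and TIMP1). MMP3 was called in LPS/Control under all 9 alternatives. Of 36 log2 fold changes of single members, 28 stayed within their counting interval under scaling by the total count, 28 under the upper quartile, 36 under TMM, 33 with a pseudocount of 5 and 28 after the length and GC correction. Scaling by the total count moved the median of all genes by -0.13 in LPS/Control. With 1 library per condition, the spread between cultures is not known. Where a member had 7 counts or fewer, depth limited what could be seen. No paired analysis was possible because each condition had 1 library.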
